A study of Mus musculus with 6 samples.

Results

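Chemokines and their receptors were examined in left ventricular RNA of mice with heart failure with preserved ejection fraction (HFpEF) and of chow-fed controls. The genes were chosen by symbol, as protein-coding genes named Ccl, Cxcl, Ccr, Cxcr or Ackr with a number, or named Cx3cl1, Cx3cr1, Xcl1 or Xcr1. The rule found 67 of the 54532 genes in the deposited expression table, under 62 symbols, with 44 genes for ligands and 23 for receptors. Ccl19, Ccl21a, Ccl21b and Ccl27 are annotated as several near-identical copies that together make up 9 of the 67 genes. Ccl19-ps1, Ccl19-ps3 and Cxcl11 have matching symbols but are not annotated as protein-coding, and they were left out.

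The study sequenced RNA from the left ventricular myocardium of 3 Chow and 3 HFpEF mice, with 1 library from each animal. All were male C57BL/6 mice that were 6 to 8 weeks old at the start. For 12 weeks, HFpEF mice ate a diet that drew 60% of its energy from fat, and their water held 0.5 g/L of L-NAME, which blocks nitric oxide synthesis. Chow mice received standard chow and plain water over the same 12 weeks. The diet and L-NAME were always given together, so their effects cannot be told apart. A library is called here by its group and replicate number, and the study names no pairing between the groups.

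Chemokines are small secreted proteins, named for the spacing of their first cysteines (CC, CXC, CX3C or XC), that guide the movement of leukocytes along concentration gradients. They act on membrane receptors that signal through inhibitory G proteins, whereas the atypical receptors (Ackr) bind chemokines without this signal and take them up or carry them across cells. In the heart, chemokines of the CCL2 group recruit monocytes that carry CCR2, and CXCL12, made by stromal and endothelial cells, acts on CXCR4.

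Expression was deposited as FPKM, a fragment count divided by exon length and by library size, which can be compared between genes because it is divided by gene length. The whole reads behind each value were recovered from the steps between low FPKM values, and each library then held 13076772 to 16027084 reads in genes. HFpEF replicate 3 stood apart from the other libraries. Summed FPKM of 8 fibroblast markers was 220 to 259 in Chow, 425 and 494 in HFpEF replicates 1 and 2 and 5522 in HFpEF replicate 3. Leaving this library out moved the number of genes with adjusted p under 0.05 from 14 to 1169 of the 14225 tested, so values are also given without it where they rest on it most. Cardiomyocyte markers bore out the tissue, with 8 genes that summed to 12970.5 to 14187.7 FPKM in Chow and 6252 to 10113 in HFpEF.

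Chemokine and receptor genes were mostly detected at low levels. FPKM was above 0 for 42, 43 and 40 of the 67 genes in Chow replicates 1, 2 and 3 and for 49, 48 and 50 in the HFpEF replicates. Every HFpEF library had more detected members than any Chow library, as it did over all genes, where 20499 to 21024 were detected in Chow and 21622 to 22366 in HFpEF. With detection set at 10 reads, the numbers were 29, 26 and 23 in Chow and 31, 38 and 42 in HFpEF. With detection set at an FPKM of 0.5, they were 24, 26 and 25 in Chow and 26, 28 and 37 in HFpEF.

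In all, 55 genes had a read in at least 1 library and 36 had reads in every library. The other 12 were at 0 in all 6 libraries: both annotated copies of Ccl19, Ccl20, 2 copies of Ccl21b, Ccl21c, Ccl26, 1 copy of Ccl27, Ccl27b, Cxcl15, Cxcl17 and Cxcr1. A count of 0 allows up to 3 reads in a library, so these genes were not detected at this depth. How reads shared by near-identical copies were counted is not given in the sources used here. A 0 at such a copy may thus not give the level of its transcript. A further 9 genes were at 0 in all Chow libraries and above 0 in HFpEF, namely Ccl1, Ccl21b, Ccl27, Ccr1l1, Ccr6, Ccr8, Cxcl2, Cxcl3 and Xcl1. Of these, Ccl1, Ccr1l1, Cxcl3 and Xcl1 rested on a single read, and Ccl21b, Ccl27 and Ccr8 on 5, 4 and 5 reads over the HFpEF group. Over all genes, too, more were detected in the HFpEF libraries, and the share with this pattern was not counted. The reverse held for 1 gene, a copy of Ccl21a on chromosome 4 with at most 3 reads.

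For 4 genes whose values are described below, Ccl12, Ccl8, Cxcl13 and Cxcl9, the sequence around the transcription start is shown because these genes carried the largest differences or the lowest p-values in either direction. The windows hold 250 bases before and 50 bases from the RefSeq start, written 5′ to 3′ on the gene's strand, and come from RefSeq on GRCm38.p6. They lie at chr11:82101595-82101894 on the plus strand for Ccl12, chr11:82114935-82115234 on the plus strand for Ccl8, chr5:95956689-95956988 on the plus strand for Cxcl13 and chr5:92328030-92328329 on the minus strand for Cxcl9. Capitals mark the letters TATAAA, the core of a TATA box.
Ccl12: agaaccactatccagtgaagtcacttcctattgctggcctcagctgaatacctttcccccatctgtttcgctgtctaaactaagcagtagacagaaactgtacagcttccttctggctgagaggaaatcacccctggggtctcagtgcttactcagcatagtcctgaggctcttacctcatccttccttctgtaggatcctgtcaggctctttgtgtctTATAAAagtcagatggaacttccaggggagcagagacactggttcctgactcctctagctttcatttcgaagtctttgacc
Ccl8: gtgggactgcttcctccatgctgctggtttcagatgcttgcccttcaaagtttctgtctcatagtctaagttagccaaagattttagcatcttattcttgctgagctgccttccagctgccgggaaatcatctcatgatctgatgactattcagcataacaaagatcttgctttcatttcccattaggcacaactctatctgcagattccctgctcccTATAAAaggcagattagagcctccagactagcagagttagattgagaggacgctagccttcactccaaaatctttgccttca
Cxcl13: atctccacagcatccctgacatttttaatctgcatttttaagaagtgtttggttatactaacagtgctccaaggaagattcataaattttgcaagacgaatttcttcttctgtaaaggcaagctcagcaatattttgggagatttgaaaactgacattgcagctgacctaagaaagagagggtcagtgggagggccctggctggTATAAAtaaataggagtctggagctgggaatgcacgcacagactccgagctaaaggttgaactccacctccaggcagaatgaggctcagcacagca
Cxcl9: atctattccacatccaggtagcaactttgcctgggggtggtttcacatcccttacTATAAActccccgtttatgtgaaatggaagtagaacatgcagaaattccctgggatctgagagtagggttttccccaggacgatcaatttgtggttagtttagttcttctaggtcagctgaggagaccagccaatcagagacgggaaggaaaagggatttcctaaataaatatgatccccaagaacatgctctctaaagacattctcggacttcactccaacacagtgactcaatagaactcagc

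The TATAAA letters began 31 bases before the start of Ccl12, 32 before that of Ccl8 and 46 before that of Cxcl13, whereas they began 195 bases before the start of Cxcl9. RefSeq windows of this length were matched to 46 of the 62 symbols and numbered 53, since some genes have several starts. TATAAA on either strand was present in 15 of the 53 windows (28.3%), against 13.6% of all 32851 windows. The NF-kB consensus was present in 10 windows (18.9%, against 4.51% of all), which included those of Cxcl1, Cxcl2, Cxcl3 and Cxcl10. TGANTCA, the AP-1 motif, was likewise in 10 windows (18.9%, against 7.81%). TTCNNNGAA, the STAT motif, was in 4 windows (7.55%, against 8.30%). Both strands were searched, the motifs do not contain each other, and they were chosen after the expression values were known. A match describes the letters of a window and is no evidence that a factor binds there.

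By level, 2 genes made up much of the chemokine system in this tissue. Cxcl12, the ligand of CXCR4 and of the atypical receptor ACKR3, had the highest mean FPKM of all ligands, with 36.9, 36.4 and 33.9 in Chow and 29.5, 25.4 and 35.8 in HFpEF. It made up 32.0% to 40.3% of the summed FPKM of all ligands in Chow and 19.0% to 32.3% in HFpEF. Ackr3, the atypical receptor that takes up CXCL12, had the highest mean FPKM of all receptors, with 24.8, 20.7 and 20.3 in Chow and 22.3, 21.1 and 13.3 in HFpEF. It made up 66.9% to 73.1% of the summed receptor FPKM in Chow, 63.0% and 61.8% in HFpEF replicates 1 and 2 and 30.4% in HFpEF replicate 3.

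After Cxcl12, the ligands with the highest mean FPKM over all libraries were Ccl8, Cxcl14, Ccl21a, Ccl6 and Cxcl16. Their group means lay between 1.27 and 23.6 FPKM. Among the receptors only Ackr3 and Cxcr4 had a group mean above 5 FPKM. Summed over all members, FPKM was 149, 132 and 113 in Chow and 127, 149 and 232 in HFpEF. The sums overlapped between the groups, and the highest was that of HFpEF replicate 3. Receptor sums were 33.9, 30.9 and 28.7 in Chow and 35.4, 34.2 and 43.9 in HFpEF and did not overlap.

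**Figure D1:**
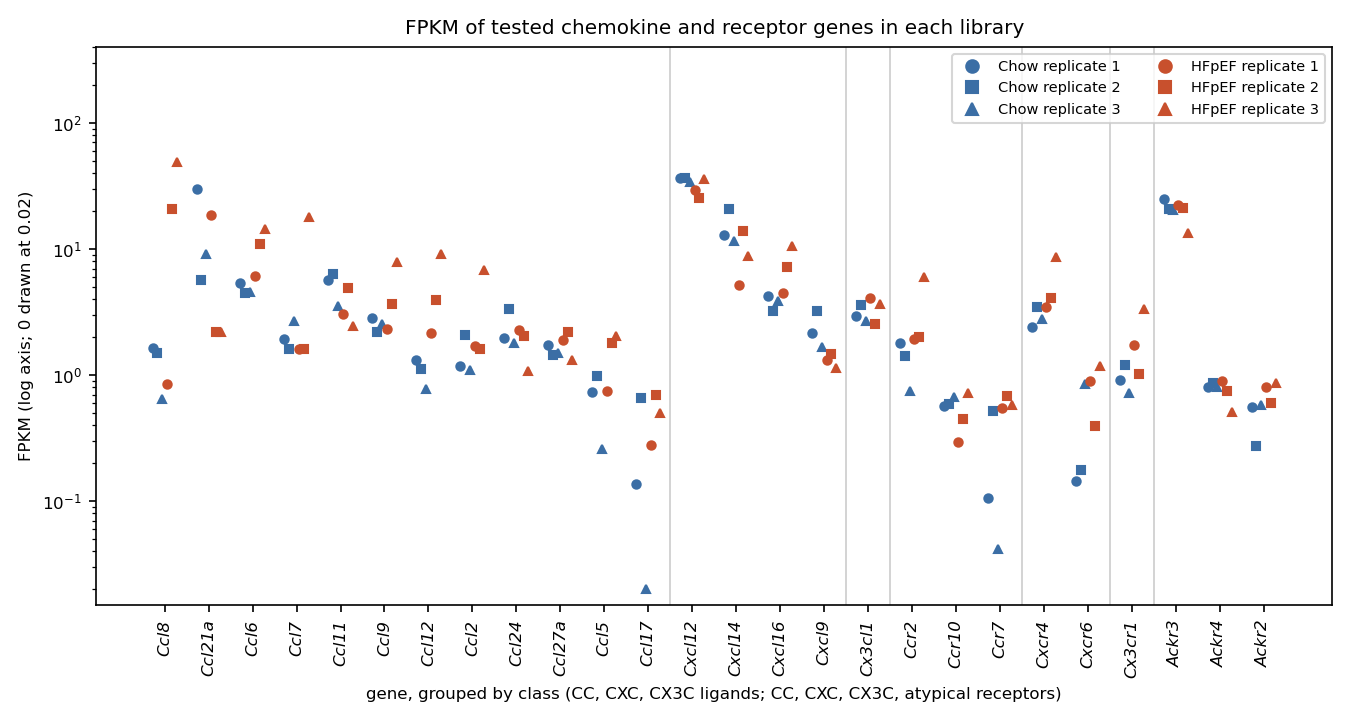
FPKM of tested chemokine and receptor genes (log axis, a point for each of the 6 libraries, genes grouped by class and then by mean level). Cxcl12 and Ackr3 lie at the top of their groups in most libraries, Ccl8 spreads from 0.647 to 49.2 FPKM, and the triangle of HFpEF replicate 3 is often the highest point, as for Ccl7 at 17.8 and Ccr2 at 5.97 FPKM.

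Differences between HFpEF and Chow were tested where 3 or more libraries reached an FPKM of 0.5, a filter that 27 of the 67 members passed (17 ligands and 10 receptors). The test was limma's moderated test on log2(FPKM + 0.1), with p-values adjusted by Benjamini-Hochberg over all 14225 genes that met the same filter. Log2 fold changes are on this scale, HFpEF minus Chow, and understate the change of low genes. In bulk tissue, fewer cells of a type and less RNA per cell cannot be told apart. No chemokine or receptor gene had an adjusted p under 0.05, against 0.0984% of all genes tested, and none met the study's threshold of an additional log2 fold change of 2 in size, against 0.0562%. The study applied its threshold with DESeq2 rather than limma. Its methods give the p as adjusted, whereas its results give p under 0.05 without saying so. It reported many more genes over the threshold, so its calls and those given here are not alike. The lowest unadjusted p among the members was 0.00697, with an adjusted p of 0.119. At an unadjusted p under 0.05, 3 members were higher in HFpEF (Ccl12, Ccl6 and Cxcl16), where the background was 10.2% of all genes, and 1 was lower (Cxcl9), where it was 13.1%. The same test on recovered reads (limma-voom) gave no adjusted p under 0.05 either. At an unadjusted p under 0.05 it had 4 members higher (10.98% of all genes) and 1 lower (12.48%).

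The median log2 fold change of the 27 members was 0.78, against -0.012 over all genes tested. It was above 0 for 18 of them, where 48.8% of all genes were above 0. These are descriptions, because a gene that reaches 0.5 FPKM in HFpEF alone enters the test through the group in which it is high. In 22 of the 27 genes every Chow library reached 0.5 FPKM, and in Ccl17, Ccr7 and Cxcr6 at least 2 Chow libraries did not. Relative to Chow, the median log2 ratio of these members was 0.28 in the first HFpEF library, 0.23 in the second and 1.36 in the third. HFpEF replicate 3 was the highest of all 6 libraries for 15 of the 27 tested members (55.6%) and for 30.5% of all genes tested. Without it, the median log2 fold change of the members was 0.38 and no member had an adjusted p under 0.05, against 8.22% of all genes. At an unadjusted p under 0.05, Ccl12, Ccl6 and Cxcl16 were then the 3 members that were higher (10.3% of all genes) and Cxcl12 the 1 that was lower (14.8%).

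**Figure D2:**
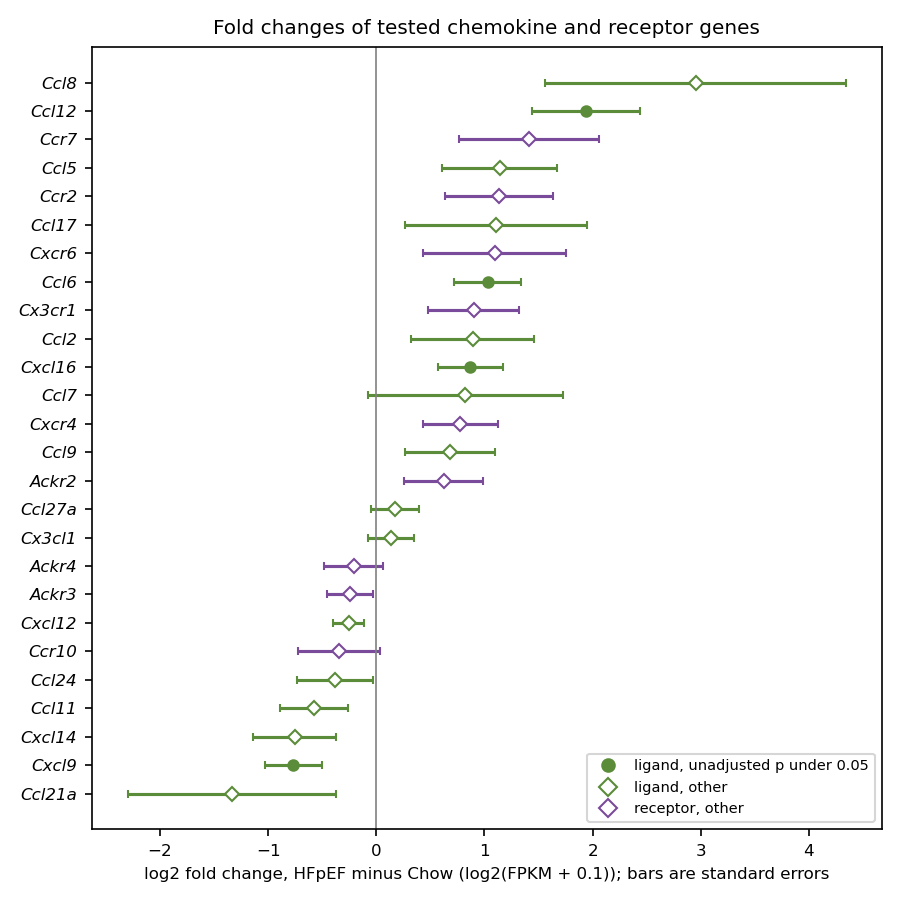
Log2 fold change of tested genes, HFpEF minus Chow on log2(FPKM + 0.1), with bars of 1 standard error (3 mice per group, ligands green, receptors purple, filled where the unadjusted p was under 0.05). The values run from -1.34 for Ccl21a to 2.95 for Ccl8, and the 4 filled points are the ligands Ccl12, Ccl6, Cxcl16 and Cxcl9.

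Among the CC ligands, 12 of 30 were tested and the median log2 fold change was 0.86, with 9 values above 0 and 3 below. Ccl12 (ENSMUSG00000035352, chromosome 11, 82101845 to 82103400 on GRCm38), a ligand of CCR2 in mice, had FPKM of 1.31, 1.11 and 0.770 in Chow and 2.15, 3.96 and 9.06 in HFpEF. These rest on 10, 7 and 5 reads in Chow and 16, 36 and 94 in HFpEF. Every HFpEF library lay above every Chow library, as it did for 7 tested members and for 15.6% of all genes tested. The log2 fold change of Ccl12 was 1.94 with a standard error of 0.50 (adjusted p = 0.119), and without HFpEF replicate 3 it was 1.41 (adjusted p = 0.0540). The exact two-sided permutation test gives 0.1 for any gene whose groups do not overlap, the smallest p that 3 mice against 3 allow.

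Ccl6 (ENSMUSG00000018927, chromosome 11, 83587882 to 83593087), a chemokine of mouse macrophages, had FPKM of 5.40, 4.51 and 4.56 in Chow and 6.07, 11.05 and 14.5 in HFpEF. The groups did not overlap, although HFpEF replicate 1 lay close to Chow. The means were 4.82 ± 0.499 and 10.6 ± 4.25 (SD, n = 3 each), and the log2 fold change was 1.03 with a standard error of 0.31 (adjusted p = 0.142), or 0.76 without HFpEF replicate 3 (adjusted p = 0.142). Ccl9, its neighbour on chromosome 11 and a ligand of CCR1, had FPKM of 2.81, 2.18 and 2.55 in Chow and 2.32, 3.66 and 7.91 in HFpEF. Its groups overlapped, with a log2 fold change of 0.68 (adjusted p = 0.348), or 0.21 without HFpEF replicate 3.

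Ccl8 (ENSMUSG00000009185, chromosome 11, 82115185 to 82116799), an attractant of monocytes and lymphocytes, had the largest log2 fold change of the tested members. Its FPKM was 1.65, 1.501 and 0.647 in Chow and 0.848, 20.8 and 49.2 in HFpEF, from 12, 9 and 4 reads and from 6, 180 and 486 reads. HFpEF replicate 1 lay within the Chow range while the other two lay far above it. With all libraries, the fold change was 2.95 on the log2 scale with a standard error of 1.39 (adjusted p = 0.254). It was 4.65 without HFpEF replicate 1 (adjusted p = 0.0830) and 1.80 without HFpEF replicate 3.

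Ccl2 and Ccl7, further ligands of CCR2, were high in a single library. Ccl2 had FPKM of 1.17, 2.10 and 1.09 in Chow and 1.71, 1.61 and 6.78 in HFpEF. Ccl7 had FPKM of 1.93, 1.60 and 2.68 in Chow and 1.62, 1.62 and 17.8 in HFpEF. For both genes HFpEF replicates 1 and 2 lay within the Chow range. The log2 fold changes were 0.89 for Ccl2 (adjusted p = 0.372) and 0.82 for Ccl7 (adjusted p = 0.598), and without HFpEF replicate 3 they were 0.24 and -0.30.

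Ccl3 and Ccl4, attractants of monocytes and lymphocytes that were below the filter, were high in the same library. Ccl3 had 1, 2 and 0 reads in Chow and 1, 2 and 26 in HFpEF, and Ccl4 had 1, 2 and 0 reads in Chow and 0, 2 and 24 in HFpEF. All the reads but 3 for Ccl3 and 2 for Ccl4 in the HFpEF group came from replicate 3. Ccl5, which binds CCR1 and is made by T and NK cells among others, had FPKM of 0.732, 0.976 and 0.258 in Chow and 0.752, 1.78 and 2.05 in HFpEF. Its groups overlapped, with a log2 fold change of 1.14 and an adjusted p of 0.250.

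Values below 0 among the tested CC ligands belonged to Ccl21a, Ccl11 and Ccl24. Ccl21a, the ligand of CCR7 in lymphatic vessels, was measured mainly at a copy on a separate scaffold (ENSMUSG00000095320, JH584294.1, 121048 to 121713). Its reads may be split or shared among near-identical copies. Its FPKM was 29.7, 5.72 and 9.05 in Chow and 18.7, 2.20 and 2.19 in HFpEF, so that replicate 1 was the highest in each group and the groups overlapped. The log2 fold change was -1.34 with a standard error of 0.96 (adjusted p = 0.419). Ccl11, an eosinophil attractant known as eotaxin, had FPKM of 5.65, 6.30 and 3.52 in Chow and 3.07, 4.91 and 2.44 in HFpEF, and a log2 fold change of -0.58 (adjusted p = 0.309). Ccl24, another eotaxin, differed by -0.38 on the log2 scale (adjusted p = 0.521).

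The CC ligands of chromosome 11 lie side by side in 2 groups. From the start of Ccl2, Ccl7 lies 10.1 kb away, Ccl11 22.3 kb, Ccl12 66.3 kb and Ccl8 79.6 kb. Neighbours shared a direction in some libraries and not in others. In HFpEF replicate 3 the log2 ratios to the Chow mean were 2.20 for Ccl2, 3.07 for Ccl7, -1.01 for Ccl11, 3.01 for Ccl12 and 5.27 for Ccl8. In HFpEF replicate 1 they were 0.28, -0.30, -0.69, 0.98 and -0.43 in the same order, and in HFpEF replicate 2 they were 0.19, -0.30, -0.03, 1.83 and 4.03. In the second group, which runs from Ccl5 over Ccl9 and Ccl6 to Ccl3 and Ccl4, all 5 ratios in HFpEF replicate 3 were above 0, from 1.58 for Ccl6 to 3.35 for Ccl4, as were all 5 in HFpEF replicate 2, from 0.47 for Ccl3 to 1.46 for Ccl5. In HFpEF replicate 1 they ran from -0.96 for Ccl4 to 0.33 for Ccl6. Ccl3 and Ccl4 had at most 2 reads in HFpEF replicates 1 and 2, so their ratios there rest on few reads.

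**Figure D3:**
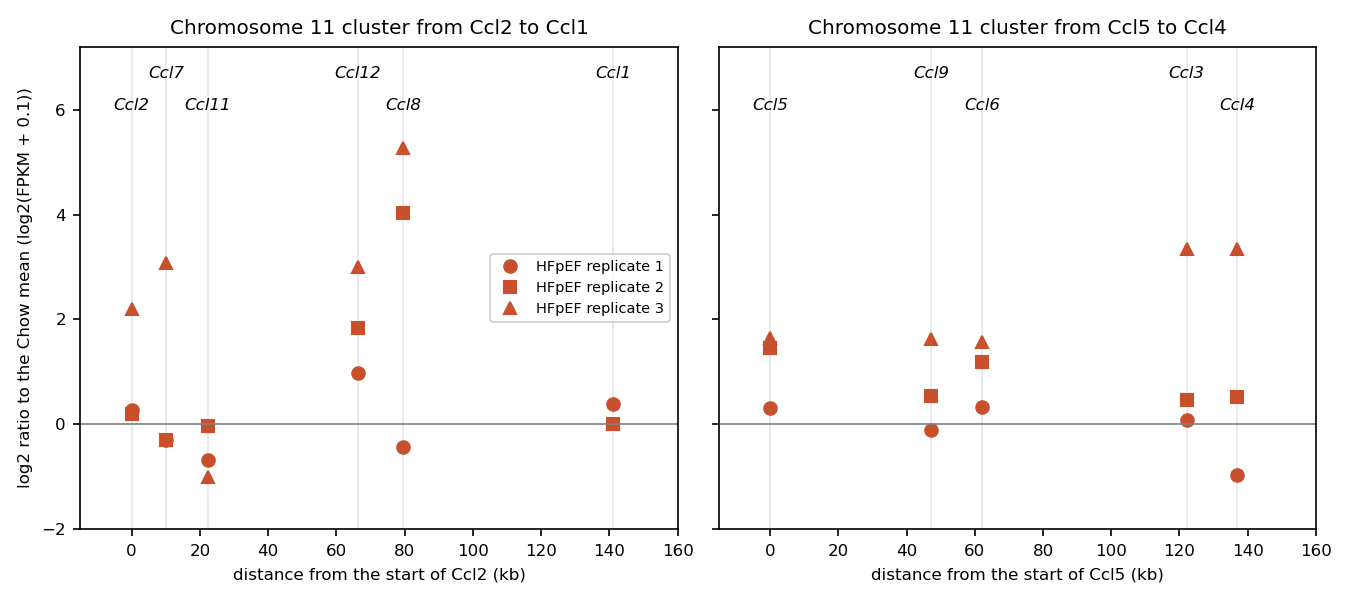
Log2 ratio of each HFpEF library to the Chow mean, on log2(FPKM + 0.1), for CC ligands of chromosome 11 against the distance between gene starts in kb (left from Ccl2, right from Ccl5). In HFpEF replicate 3 the ratio is 5.27 for Ccl8 and 3.07 for Ccl7 but -1.01 for Ccl11, which lies between Ccl7 and Ccl12. Ccl1, at the right of the left panel, had a single read in 1 library.

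Among the CXC ligands, 4 of 12 were tested and the median log2 fold change was -0.51, with 1 value above 0 and 3 below. Cxcl16 (ENSMUSG00000018920, chromosome 11, 70453983 to 70459984), a membrane-bound chemokine and scavenger receptor that binds CXCR6, had FPKM of 4.25, 3.24 and 3.89 in Chow and 4.49, 7.21 and 10.5 in HFpEF. The groups did not overlap, and HFpEF replicate 1 lay just above the highest Chow value. HFpEF exceeded Chow by 0.87 on the log2 scale with a standard error of 0.30 (adjusted p = 0.169), and by 0.58 without HFpEF replicate 3 (adjusted p = 0.178). Its exons share 552 bases (18.3% of their length) with exons of Zmynd15 on the opposite strand, and the strand setting of the counting is not given in the sources used here.

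Cxcl9 (ENSMUSG00000029417, chromosome 5, 92321347 to 92328079), a ligand of CXCR3 induced by interferon gamma, was the only tested member whose HFpEF values all lay below Chow, as they did for 19.7% of all genes tested. Its FPKM was 2.17, 3.25 and 1.67 in Chow and 1.32, 1.47 and 1.13 in HFpEF, from 93, 115 and 61 reads and from 55, 75 and 66 reads. The means were 2.36 ± 0.807 and 1.31 ± 0.168 (SD, n = 3 each), and the log2 fold change was -0.77 with a standard error of 0.26 (adjusted p = 0.166). Cxcl10, which binds the same receptor and lies near Cxcl9 on chromosome 5, had values in the other direction. It had 11, 9 and 9 reads in Chow and 14, 23 and 66 in HFpEF, so the groups did not overlap. Cxcl10 was below the filter, and under a filter of 10 reads in 3 libraries its log2 fold change was 0.96 (adjusted p = 0.209), with most of its HFpEF reads from replicate 3. Every HFpEF library but only replicate 1 of Chow reached 10 reads for Cxcl10, so these values are descriptions.

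Cxcl12 had means of 35.7 ± 1.63 FPKM in Chow and 30.2 ± 5.23 in HFpEF (SD, n = 3 each). HFpEF replicates 1 and 2 lay below every Chow library and replicate 3 within the Chow range. The log2 fold change was -0.26 with a standard error of 0.14 (adjusted p = 0.321), and without HFpEF replicate 3 it was -0.38 (adjusted p = 0.0527). Cxcl14, a chemokine of fibroblasts and epithelia, had FPKM of 13.0, 20.7 and 11.6 in Chow and 5.22, 14.0 and 8.78 in HFpEF. Its groups overlapped, with a log2 fold change of -0.76 (adjusted p = 0.279). Cx3cl1, or fractalkine, had FPKM of 2.95, 3.62 and 2.67 in Chow and 4.12, 2.55 and 3.66 in HFpEF, with a log2 fold change of 0.14 (adjusted p = 0.708).

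The largest ratio of any member was seen in a gene too low in Chow for the filter. Cxcl13 (ENSMUSG00000023078, chromosome 5, 95956951 to 95961068), the ligand of CXCR5 that attracts B cells, had 1, 0 and 0 reads in Chow and 45, 85 and 11 in HFpEF. Its FPKM was 0.0611, 0 and 0 in Chow and 2.83, 4.36 and 0.495 in HFpEF, where HFpEF replicate 3 fell just short of 0.5. Over the summed reads the ratio, corrected for depth, was 107 (95% exact interval 18.9 to 4261, for counting error only). Under the filter of 10 reads in 3 libraries, which 15046 genes met, its log2 fold change was 4.07 with a standard error of 0.72 (adjusted p = 0.0802), where 0.259% of all genes had an adjusted p under 0.05. Only the HFpEF libraries reached 10 reads for Cxcl13, so it entered this test through the group in which it is high. These values are therefore descriptions. Unlike Ccl8, Ccl2 and Ccl7, Cxcl13 was lowest in replicate 3 among the HFpEF libraries.

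Values for 7 B cell markers stood beside those of Cxcl13 in part. Their summed FPKM was 11.3, 19.0 and 10.6 in Chow and 11.4, 242 and 30.9 in HFpEF, and all 7 were above 0 in some library. HFpEF replicate 2 was highest for both, but in HFpEF replicate 1 the B cell sum lay within the Chow range while Cxcl13 had 45 reads. The adipocyte list was mixed, as Lpl and Fabp4, its most abundant genes, were lower in every HFpEF library than in Chow. Its more restricted gene Adipoq, which encodes adiponectin, was listed at 0 in all Chow libraries and had FPKM of 6.69, 6.24 and 1.91 in HFpEF (adjusted p = 0.0334). Cxcl13 and Adipoq were both lowest in replicate 3 of the HFpEF libraries. The part of these cells in the Cxcl13 values was not tested.

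Cxcl1, Cxcl5 and Cxcl2, which encode ligands of CXCR2 that attract neutrophils, were low except in HFpEF replicate 3. Cxcl1 had 12, 20 and 9 reads in Chow and 12, 12 and 143 in HFpEF. Cxcl5 had 6, 4 and 1 reads in Chow and 11, 13 and 82 in HFpEF. Cxcl2 had no read in 5 libraries and 18 in HFpEF replicate 3. Of these genes only Cxcl5 had groups that did not overlap, with a log2 fold change of 1.86 and an adjusted p of 0.159 under the filter of 10 reads in 3 libraries, and most of its HFpEF reads were from replicate 3. Only the HFpEF libraries reached 10 reads for Cxcl5, so these values are descriptions too. Cxcr2, the receptor gene of these ligands, had 2, 1 and 0 reads in Chow and 1, 5 and 7 in HFpEF. The sum of 9 neutrophil markers was 1.40 to 4.22 FPKM in Chow and 1.37 to 4.25 in HFpEF, and Ly6g and Ngp were at 0 in every library.

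**Figure D4:**
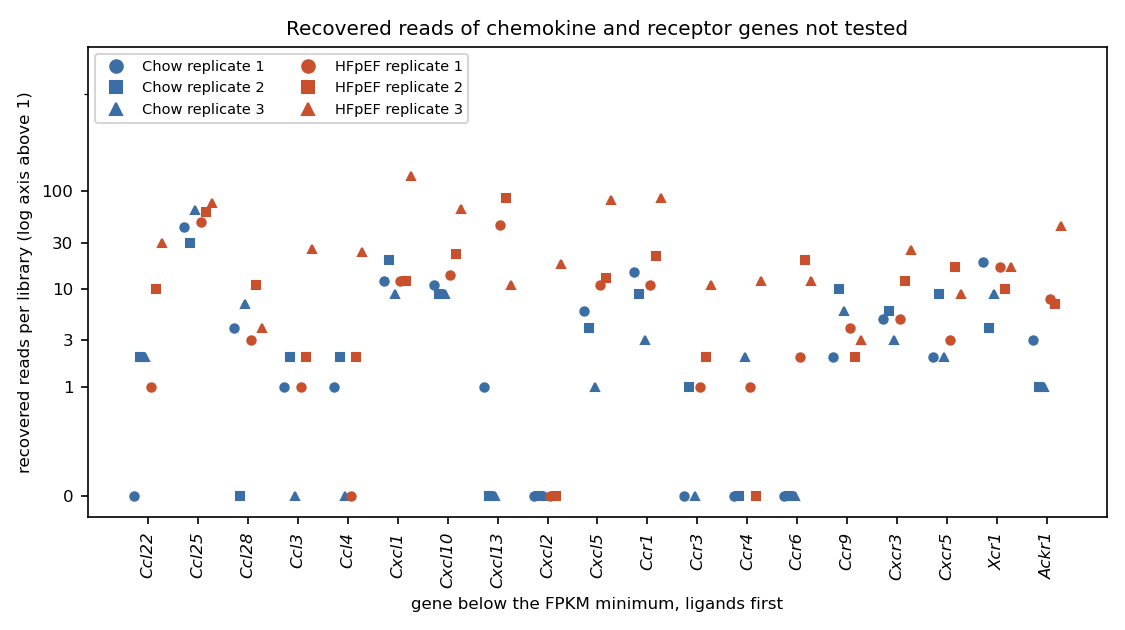
Recovered reads in each library for the 19 genes that were below the FPKM filter and had at least 10 reads in some library (log axis above 1 read, 0 drawn at the base). Cxcl13 has at most 1 read in Chow and 11 to 85 in HFpEF, whereas Cxcl1, Cxcl2, Ccl3 and Ccl4 stand out only in HFpEF replicate 3, with 143, 18, 26 and 24 reads.

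Among the 11 CC receptors, 4 were tested and the median log2 fold change was 1.10, with 3 values above 0 and 1 below. Ccr2 (ENSMUSG00000049103, chromosome 9, 124101950 to 124113557), the receptor of recruited monocytes, had FPKM of 1.80, 1.42 and 0.746 in Chow and 1.94, 2.00 and 5.97 in HFpEF. The groups did not overlap, but HFpEF replicates 1 and 2 lay close to the highest Chow value. The log2 fold change was 1.14 with a standard error of 0.50 (adjusted p = 0.233), and it was 0.62 without HFpEF replicate 3. Its ligands Ccl2, Ccl7 and Ccl12 were likewise highest in that library.

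Ccr1, a receptor of CCL3 and CCL5 below the filter, had 15, 9 and 3 reads in Chow and 11, 22 and 85 in HFpEF, with overlap between the groups.

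Ccr7, which guides dendritic cells and T cells to lymph vessels, had 3, 12 and 1 reads in Chow and 15, 23 and 22 in HFpEF. The groups did not overlap, and unlike Ccr2 it was not set apart in HFpEF replicate 3. Its log2 fold change was 1.41 with a standard error of 0.65 (adjusted p = 0.244). Ccr6, a receptor of B cells and some T cells, had no read in Chow and 2, 20 and 12 reads in HFpEF, and over the summed reads it was at least 8.61-fold higher when Chow is set at 3 reads over the group. Ccr6 belongs to 6 genes below the filter whose HFpEF values all lay above Chow (Ackr1, Ccl21b, Ccr6, Cxcl10, Cxcl13 and Cxcl5), as they did for 6.73% of the 13212 genes that were below the filter and above 0 in some library. None lay below Chow, where the share of those 13212 genes was 2.09%.

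The tested receptors of the CXC and CX3C ligands, Cxcr4, Cxcr6 and Cx3cr1, had log2 fold changes above 0. Cxcr4, the signalling receptor of CXCL12, had FPKM of 2.41, 3.49 and 2.79 in Chow and 3.47, 4.08 and 8.70 in HFpEF. The groups overlapped only between HFpEF replicate 1 and Chow replicate 2, and the log2 fold change was 0.78 with a standard error of 0.35 (adjusted p = 0.237). Without HFpEF replicate 3 it was 0.38. For its ligand Cxcl12 the fold change had the opposite sign, and neither passed the test.

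Cx3cr1, the fractalkine receptor of resident macrophages and patrolling monocytes, had FPKM of 0.920, 1.19 and 0.716 in Chow and 1.73, 1.02 and 3.32 in HFpEF. The groups overlapped, with a log2 fold change of 0.90 (adjusted p = 0.252), or 0.48 without HFpEF replicate 3. Cxcr6, the receptor of CXCL16, differed by 1.09 on the log2 scale (adjusted p = 0.343). Cxcr3, below the filter, had 5, 6 and 3 reads in Chow and 5, 12 and 25 in HFpEF. Cxcr5, the receptor of CXCL13, had 2, 9 and 2 reads in Chow and 3, 17 and 9 in HFpEF, with overlap, so the difference seen in its ligand was not detectable in the receptor at this depth.

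No atypical receptor passed the test. Ackr3 had means of 21.9 ± 2.48 FPKM in Chow and 18.9 ± 4.89 in HFpEF (SD, n = 3 each) and a log2 fold change of -0.24 with a standard error of 0.21 (adjusted p = 0.505). Ackr4, which takes up CCL19 and CCL21, had means of 0.827 ± 0.0390 and 0.718 ± 0.196 FPKM and a log2 fold change of -0.21 (adjusted p = 0.658). Ackr2, a scavenger of inflammatory CC chemokines, had FPKM of 0.561, 0.273 and 0.582 in Chow and 0.808, 0.604 and 0.861 in HFpEF. Its groups did not overlap, with a log2 fold change of 0.62 (adjusted p = 0.329). Ackr1, a chemokine transporter of venules and red cells, had 3, 1 and 1 reads in Chow and 8, 7 and 44 in HFpEF without overlap, but 25.7% of its exon length is shared with Cadm3 on the same strand.

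Other genes of the pathway were counted from fixed lists, and none of the tested ones had an adjusted p under 0.05. Over all genes tested, 48.8% had a log2 fold change above 0, and at an unadjusted p under 0.05 10.2% were higher and 13.1% lower. Of 39 tested genes for chemokine signalling, 35 had a log2 fold change above 0 (median 0.36), and 11 were higher and 2 lower at an unadjusted p under 0.05. The most abundant of them were Gnai2, an inhibitory G protein subunit, at -0.02 (adjusted p = 0.938) and Cdc42, a small GTPase of cell movement, at 0.21 (adjusted p = 0.326). Of 14 tested genes for the induction of chemokines or its control, all were above 0 (median 0.35), and 3 were higher at an unadjusted p under 0.05 (10.2% of all genes). Rela, a subunit of NF-kB, stood at 0.22 (adjusted p = 0.222) and Nfkbia, its inhibitor, at 0.01 (adjusted p = 0.980).

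Of 13 tested genes that hold or cut chemokines outside the cell, 11 were above 0 (median 0.48) and 3 were higher at an unadjusted p under 0.05 (10.2% of all genes). Mmp2, a protease that cleaves chemokines and matrix, stood at 0.97 (adjusted p = 0.210) with all libraries and at 0.48 without HFpEF replicate 3 (adjusted p = 0.0191), and Hspg2, a heparan sulfate proteoglycan, at 0.00 (adjusted p = 0.991). Of 8 tested ligands outside the name rule, 3 were higher and 1 lower at an unadjusted p under 0.05 (10.2% and 13.1% of all genes). Pf4, the CXC chemokine of platelets, had FPKM of 18.4, 19.1 and 15.6 in Chow and 21.8, 20.8 and 31.9 in HFpEF (log2 fold change 0.46, adjusted p = 0.207). Mif, a cytokine that binds CXCR2, CXCR4 and CD74, had FPKM of 66.3, 76.5 and 68.0 in Chow and 57.1, 57.1 and 43.8 in HFpEF (log2 fold change -0.43, adjusted p = 0.169). The groups did not overlap for Pf4 or for Mif, and they lay in opposite directions.

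Of 6 tested receptors outside the name rule, 3 were higher and 1 lower at an unadjusted p under 0.05 (10.2% and 13.1% of all genes). Cd74, the invariant chain of MHC class II that also serves as a receptor of MIF, had FPKM of 124, 112 and 91.0 in Chow and 125, 224 and 273 in HFpEF (log2 fold change 0.86, adjusted p = 0.173). HFpEF replicate 1 lay just above the highest Chow value. Plxnd1, a semaphorin receptor, differed by -0.26 on the log2 scale (adjusted p = 0.218), and by -0.34 without HFpEF replicate 3 (adjusted p = 0.0287). Without that library, an adjusted p under 0.05 was found for 10 of the 80 pathway genes tested, against 8.22% of all genes, and 65 of the 80 were above 0 (median 0.21).

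Some marker lists of other cells, among them macrophage and monocyte markers, were also highest in HFpEF replicate 3. Others, such as mast cell, mesothelial and smooth muscle markers, were not. Summed FPKM of 14 macrophage markers was 305, 314 and 251 in Chow and 314, 423 and 979 in HFpEF, all 14 had log2 fold changes above 0 (median 0.74), and 5 were higher at an unadjusted p under 0.05 (10.2% of all genes, with 48.8% of all genes above 0). Without HFpEF replicate 3 their median was 0.45, with 7 higher (10.3% of all genes). Lyz2, the most abundant of them, had FPKM of 110 to 147 in Chow and 139, 179 and 534 in HFpEF. For the macrophage sum and for Lyz2, the order of the HFpEF libraries was the same as for Ccl12, Ccl6, Cxcl16 and Ccl8, with replicate 3 highest and replicate 1 lowest. The sums of fibroblast, dendritic cell, neutrophil and T and NK cell markers had this order too. The share of all genes with this order was not counted. Timd4, Lyve1, Folr2 and Cd163 of the macrophage list were not highest in replicate 3. Timd4 had FPKM of 1.43, 1.85 and 0.286 in HFpEF, with a log2 fold change of 8.9e-05, and Lyve1 had 8.71, 9.54 and 7.40. Summed FPKM of 7 monocyte markers was 31.0 to 44.4 in Chow and 52.4, 52.3 and 220 in HFpEF. Fn1, a matrix gene that fibroblasts also express, gave 161 of the 220 FPKM in HFpEF replicate 3, and the other 6 markers summed to 24.9 to 38.3 in Chow and 38.8, 35.5 and 58.4 in HFpEF. The sum of 12 T and NK cell markers was 1.87 to 3.45 FPKM in Chow and 2.76, 5.45 and 7.30 in HFpEF.

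Fibroblast markers were 8 of 8 above 0 (median 2.03, or 0.99 without HFpEF replicate 3), and their sums in the 3 HFpEF libraries are given above. The sum of 8 endothelial markers was 239 to 267 FPKM in Chow and 199 to 206 in HFpEF, and that of 7 lymphatic markers, one of them Ccl21a, was 29.1 to 59.4 and 35.2 to 49.9. Dendritic cell markers, which include the members Ccr7 and Xcr1, summed to 6.23 to 6.90 and 8.08 to 9.58, mast cell markers to 8.02 to 10.5 and 12.9 to 16.2, and mesothelial markers to 17.8 to 26.9 and 35.6 to 123. Venous markers, which include Ackr1, summed to 24.3 to 33.7 and 20.7 to 33.5, smooth muscle and pericyte markers to 263 to 305 and 202 to 652, red blood cell markers to 280 to 1591 and 478 to 1813, and adipocyte markers to 496 to 530 and 307 to 483. All the markers of these lists, fibroblast markers included, were above 0 in some library. The adipocyte sum rests on Lpl and Fabp4, which other heart cells also express, while Adipoq, Cfd, Cidec and Car3 were the 4 genes of all the lists with an adjusted p under 0.05. The part of these cells in the chemokine and receptor values was not tested.

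**Figure D5:**
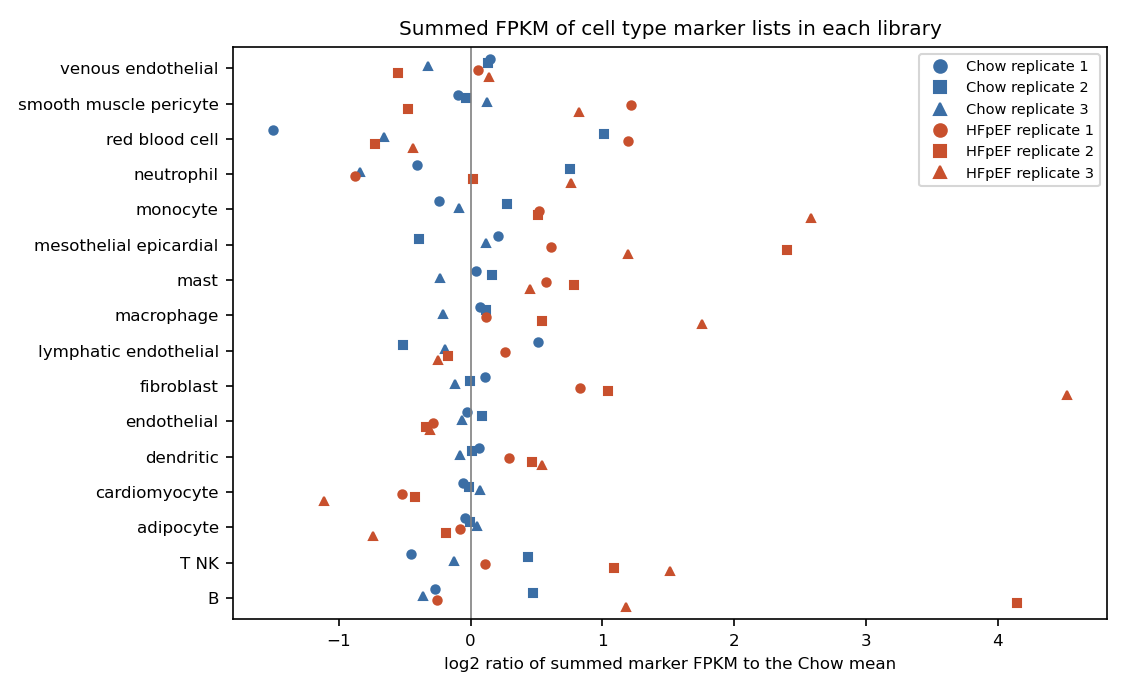
Log2 ratio of the summed FPKM of each cell type marker list to its Chow mean, with a point for each of the 6 libraries. HFpEF replicate 3 is far to the right for fibroblast, monocyte and macrophage markers (summed FPKM of 5522, 220 and 979, with 161 of the 220 from Fn1), HFpEF replicate 2 for B cell markers (242), and the cardiomyocyte sums of all 3 HFpEF libraries lie left of Chow.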

How the data were processed

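The authors used HISAT2 for alignment and featureCounts for gene counts, and they deposited FPKM for 6 libraries. The submitters' notes name GRCm38 and mm10. Per the labels, libraries were made from total RNA with a SMARTER mRNA kit, and strand use in counting is not given in the sources used here. Each gene was joined to GENCODE release M21 (54495 of 54532 identifiers). FPKM times exon length gave whole multiples of 1 step for 96.1% to 96.2% of the values above 0 (relative tolerance 1e-06), from which reads were recovered. The deposited FPKM already carried a scaling between libraries that was not stated. Intervals and floors from reads cover counting error only.

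After median-of-ratios scaling, log2(FPKM + 0.1) was fitted with limma 3.58.1 in R 4.3.3 (lmFit and eBayes, robust and with a trend). The filter required an FPKM of 0.5 or more in 3 libraries. The study's threshold for differential expression, here an adjusted p under 0.05 with a log2 fold change of 2 or more in size, was met by 0 members and 8 genes in all. The fit was tested on simulated data. The values of 1 tested receptor are not reported here. The members, lists, tests and alternatives were chosen with earlier results of these data known. Members named had an unadjusted p under 0.05, were among the 6 most abundant ligands or receptors, belonged to set ligand and receptor pairings, or were below the filter without overlap and with 10 or more reads. Of each other list, genes with an adjusted p under 0.05 and the 2 most abundant were eligible. Ccl9, Ccl11, Ccl24, Ackr2, Cxcr6 and the motifs lie outside this rule and were chosen after their values were seen. Tables were made with Python 3.11.15, pandas 2.3.3 and scipy 1.17.1.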

Additional observations from a re-analysis of the deposited data

How the results depend on the processing

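No chemokine or receptor gene had an adjusted p under 0.05 in the fit described or in any of the 16 alternatives. With 3 mice per group, no difference seen here passed the adjustment over all genes tested, which does not show that levels were equal. The number of members higher at an unadjusted p under 0.05 was 9 of 55 tested with no filter (7.05% of all genes) and 6 of 33 with a filter of 10 reads in 3 libraries (11.7%), against 3 of 27. Ccr7, already tested, was among those gained under both, and the others gained had been below the filter. Cxcl13 and Cxcl5, also gained under both, reached 10 reads only in HFpEF libraries, so the count under the read filter is a description. Leaving out 1 library at a time gave 3 to 8 members higher and 0 to 3 lower at an unadjusted p under 0.05. Over all genes, these fits had 6.19% to 11.02% higher and 7.51% to 14.85% lower. The 8 higher were found without HFpEF replicate 1 (11.02% of all genes). The count lower was 0 without Chow replicate 1 (8.25%) or 2 (7.51%) and 3 without HFpEF replicate 2 (14.07%). In these fits 0 members had an adjusted p under 0.05, and the median log2 fold change was 0.38 to 0.99. With the replicate block, 4 members were lower (11.96% of all genes). Same-numbered libraries had correlations of -0.041, -0.073 and -0.057 in their deviations from the group means, and no library correlated best with its own number. No pairing by replicate number was thus visible, although 3 libraries per group cannot exclude one. With detection set at an FPKM of 0.5, members detected in at least 1 Chow library numbered 29 rather than 46. Leaving out 1 library at a time moved Ccl7 between -0.30 (without HFpEF replicate 3, adjusted p = 0.477) and 1.39, and Cx3cl1 between -6.91e-05 (without HFpEF replicate 1, adjusted p = 1.00) and 0.34. The other 298 alternative values of named genes kept their direction and their side of the threshold. For the 4 genes with an unadjusted p under 0.05, adjusted p ran from 0.0540 to 0.353 (Ccl12), 0.0922 to 0.360 (Ccl6), 0.116 to 0.392 (Cxcl16) and 0.151 to 0.380 (Cxcl9). The causes of these changes were not tested beyond the number of genes or libraries entered.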
